A study of Rattus norvegicus with 8 samples.

Results

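The glucocorticoid receptor gene Nr3c1 and 8 genes known to respond to it or to supply its hormone were followed in perfused rat liver. The 9 genes were picked by name from the platform annotation (Nr3c1, Fkbp5, Tsc22d3, Sgk1, Ddit4, Mt1a, Mt2A, Zbtb16 and Hsd11b1), and all 9 were measured, out of 14506 named genes. Mt1a carries the current symbol Mt1 and is called so here. A gene with several probe sets is given by the one with the highest mean over the 8 arrays.

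Livers of male Wistar rats, an outbred strain, aged 6 to 10 weeks, were perfused with Krebs-Henseleit buffer, a bicarbonate-buffered salt solution. In 4 samples the buffer was normoosmotic (305 mosm/L) and in 4 it was hypoosmotic (225 mosm/L), a change that draws water into cells, and all 8 are labelled with the time point of 120 min. No genetic change and no added drug or hormone is named in the labels for either group, and whether the buffer held a corticosteroid is not given in the sources used here. An isolated liver has no supply from the adrenal gland, and livers before perfusion were not analysed here. Whether each sample is a different animal is not stated in the labels, and the p-values therefore reflect sample-to-sample spread only, part of which may be technical. Total RNA was measured on 1-colour Affymetrix arrays, and all values below are log2 expression values as deposited. Changes are hypoosmotic minus normoosmotic.

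The glucocorticoid receptor waits in the cytoplasm in a complex with the chaperone Hsp90 and cochaperones, enters the nucleus when a corticosteroid binds it, and there raises or lowers transcription of target genes. In liver these targets include enzymes of glucose and amino acid metabolism, and many of them also answer to other signals, among them fasting, metals, low oxygen and the circadian clock. In rats the active hormone is corticosterone, which peaks once a day, and the enzyme encoded by Hsd11b1 regenerates it inside hepatocytes from its inactive keto form.

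The promoters of 3 of the genes are shown because the data bear on them. Ddit4 was the 1 member called by limma at an adjusted p under 0.05. Mt1 and Mt2A lay at the top of the range of the arrays. Each window is RefSeq sequence of the GRCr8 build, from 250 bases before to 50 bases after the transcription start, written 5′ to 3′ on the gene's own strand, which is the minus strand for all 3. Capitals mark the core of the metal response element, the site of the zinc-sensing factor MTF1, searched as TGCACNC or TGCGCNC on both strands.
Mt1 at chr19:10832926-10833225: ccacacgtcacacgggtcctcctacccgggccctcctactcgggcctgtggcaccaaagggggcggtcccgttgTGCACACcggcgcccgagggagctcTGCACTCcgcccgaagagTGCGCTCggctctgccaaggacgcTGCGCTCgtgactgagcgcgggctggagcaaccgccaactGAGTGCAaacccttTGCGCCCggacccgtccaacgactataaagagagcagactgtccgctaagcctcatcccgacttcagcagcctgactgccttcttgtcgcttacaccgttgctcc
Mt2A at chr19:10838659-10838958: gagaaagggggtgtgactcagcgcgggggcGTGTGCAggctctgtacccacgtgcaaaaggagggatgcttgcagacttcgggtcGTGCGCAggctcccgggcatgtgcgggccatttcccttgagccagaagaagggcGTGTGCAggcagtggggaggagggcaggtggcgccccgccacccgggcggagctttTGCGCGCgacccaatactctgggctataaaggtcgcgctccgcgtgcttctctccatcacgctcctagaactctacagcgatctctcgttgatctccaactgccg
Ddit4 at chr20:28436988-28437287: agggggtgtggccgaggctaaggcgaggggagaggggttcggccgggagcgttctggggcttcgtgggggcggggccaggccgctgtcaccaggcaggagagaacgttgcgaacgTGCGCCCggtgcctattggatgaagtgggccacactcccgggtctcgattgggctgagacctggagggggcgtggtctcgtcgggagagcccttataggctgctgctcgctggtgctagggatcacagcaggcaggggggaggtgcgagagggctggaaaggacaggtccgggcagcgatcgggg

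The Mt1 window held 6 such cores, at 176, 151, 133, 109, 69 and 55 bases before the start, and the Mt2A window held 4, at 220, 165, 111 and 55 bases before it. The Ddit4 window held 1, at 135 bases before the start. Over all 33469 RefSeq promoter windows of this length, 24.2% held at least 1 core, 0.439% held 4 or more and 0.039% held 6 or more. Windows were found for 7 of the 9 genes, 12 windows in all, because Sgk1 and Tsc22d3 have 3 each and Nr3c1 has 2. Zbtb16 and Hsd11b1 are named only. None of the 12 windows held the palindromic glucocorticoid response element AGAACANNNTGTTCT or its single arm TGTTCT on either strand, against 0.015% and 20.7% of all windows. That says only that these letters are not in these windows.

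Of the 9 genes, 1 was called higher and 0 were called lower in hypoosmotic livers by limma at an adjusted p under 0.05. Over all 14506 genes 1.98% were called, 0.558% higher and 1.42% lower. At an unadjusted p under 0.05 there were 3 of the 9 members, 2 higher and 1 lower, beside 14.6% of all genes. The 4 values of each group lay apart in 2 members, Ddit4 and Fkbp5, and in 8.27% of all genes. The median change of the members was 0.06, beside 0.04 over all genes. The plot of the 9 genes by array shows the values behind these counts.

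**Figure D1:**
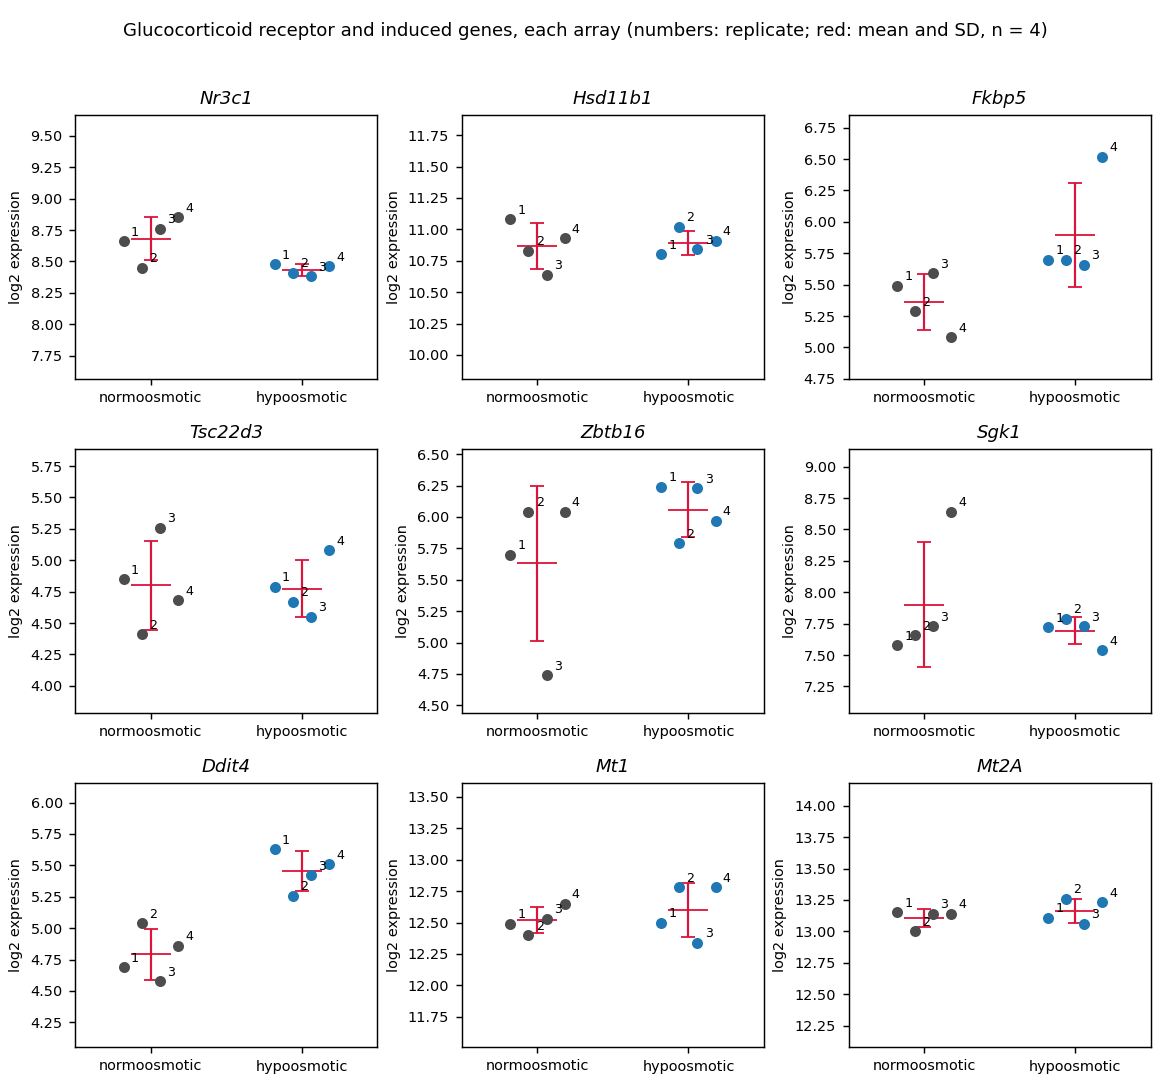
Log2 expression of the 9 genes in each array, with the replicate number beside each point and the mean and SD of each group (n = 4) in red; every panel spans the same height in log2 units. The hypoosmotic points of Ddit4 lie between 5.26 and 5.63, above the normoosmotic points between 4.58 and 5.04, and the points of the metallothionein genes Mt1 and Mt2A overlap.

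The receptor gene Nr3c1 (probe set 10804132) read 8.66, 8.45, 8.76 and 8.85 in normoosmotic replicates 1 to 4 and 8.48, 8.41, 8.38 and 8.46 in the hypoosmotic ones. Normoosmotic replicate 2 lay inside the hypoosmotic range, and the other 3 normoosmotic values lay above it. The change was −0.25 with a standard error of 0.11 and a 95% interval of −0.49 to −0.001 (limma, unadjusted p = 0.0491, adjusted p = 0.340). It did not pass the test in any of 16 alternative settings, in which it lay between −0.32 and −0.19. The hypoosmotic values were close together, with an SD of 0.05 that only 1.90% of genes undercut, against 0.17 in normoosmotic samples.

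Hsd11b1 (probe set 10770795), which supplies the receptor with active hormone, was bright and did not pass the test. It read 11.08, 10.83, 10.64 and 10.93 in normoosmotic samples and 10.80, 11.02, 10.84 and 10.91 in hypoosmotic ones, so that every hypoosmotic value lay inside the normoosmotic range. The change was 0.02 with a 95% interval of −0.24 to 0.28, and its sign turned in 4 of 16 settings. H6pd, which makes the cofactor that Hsd11b1 uses, had a change of 0.04, and Serpina6, the corticosteroid-binding globulin of plasma, one of −0.08. The 11 measured genes of corticosteroid supply and breakdown, Hsd11b1 included, had changes from −0.51 to 0.08. Of them 0 were called by limma, beside 1.98% of all genes. At an unadjusted p under 0.05 there was 1, beside 14.6% of all genes. That gene was Nr3c2, the mineralocorticoid receptor, which binds the same hormone. It read 5.31 ± 0.18 in normoosmotic and 4.88 ± 0.28 in hypoosmotic samples (SD, n = 4 each; adjusted p = 0.178).

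Fkbp5 (probe set 10831940) encodes a cochaperone that binds the receptor complex and lowers its affinity for hormone, and its own transcription is raised by the receptor. It read 5.49, 5.29, 5.59 and 5.08 in normoosmotic samples and 5.70, 5.70, 5.66 and 6.52 in hypoosmotic ones. The groups did not overlap, with a gap of 0.07, and hypoosmotic replicate 4 stood above the other 3 arrays of its group. The change of 0.53 with a standard error of 0.19 (95% interval 0.13 to 0.94) did not pass over all genes (limma, adjusted p = 0.186). Without hypoosmotic replicate 4 it was 0.32 (adjusted p = 0.262), and over 16 settings the adjusted p lay between 0.139 and 0.326.

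Tsc22d3 (probe set 10939516), also known as Gilz, encodes a leucine zipper protein that carries anti-inflammatory effects of glucocorticoids. Its normoosmotic values were 4.85, 4.41, 5.26 and 4.68 and its hypoosmotic values 4.79, 4.67, 4.55 and 5.08. All 4 hypoosmotic values lay inside the normoosmotic range. The change was −0.03 with a 95% interval of −0.40 to 0.35 (adjusted p = 0.968), and its sign turned in 4 of 16 settings.

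Zbtb16 (probe set 10917116), the zinc finger repressor also called Plzf, read 5.70, 6.04, 4.74 and 6.04 in normoosmotic samples and 6.24, 5.79, 6.23 and 5.97 in hypoosmotic ones. The low value of normoosmotic replicate 3 made its normoosmotic SD of 0.61 larger than that of 99.3% of genes. The change of 0.43 did not pass (95% interval −0.09 to 0.95, adjusted p = 0.467). It was 0.13 without normoosmotic replicate 3 and 0.20 with the clock score below as a covariate.

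Sgk1 (probe set 10717331) encodes a kinase that regulates ion transport. It was first cloned as a glucocorticoid-induced transcript of rat cells, and in human hepatoma cells its transcript is known to rise when cells shrink. It read 7.58, 7.66, 7.73 and 8.64 in normoosmotic samples and 7.72, 7.79, 7.73 and 7.54 in hypoosmotic ones. Normoosmotic replicate 4 stood alone at 8.64, and the other 7 arrays lay between 7.54 and 7.79. The change was −0.21 with a 95% interval of −0.63 to 0.22 (adjusted p = 0.700), and it was 0.04 without that array.

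Ddit4 (probe set 10832920), also called Redd1, encodes an inhibitor of the growth kinase complex mTORC1 that is induced by glucocorticoids, low oxygen and other stresses. It read 4.69, 5.04, 4.58 and 4.86 in normoosmotic samples and 5.63, 5.26, 5.42 and 5.51 in hypoosmotic ones. The lowest hypoosmotic value lay 0.22 above the highest normoosmotic one. Ddit4 rose by 0.66 with a standard error of 0.13, or 1.58-fold, and the fold's 95% interval ran from 1.30 to 1.92 (limma, adjusted p = 0.0213). The call held in 11 of 16 settings. It was lost without normoosmotic replicates 1 (adjusted p = 0.0688) and 3 (0.0768) and without hypoosmotic replicates 1 (0.0590) and 3 (0.0511). A covariate for the clock score described below also removed it (0.0652). The change lay between 0.58 and 0.75 in all 16.

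A list of Sgk1, Ddit4 and their signalling partners held 21 measured genes, of which 2 were called higher, Ddit4 itself and Txnip, and 0 lower. Without Sgk1 and Ddit4, 1 of 19 was called higher and 0 lower. Over all genes 0.558% were called higher and 1.42% lower. Txnip also belongs to the further induced genes described below, so its call counts in both lists. The median change of the list was 0.04, the same as over all genes. Txnip, which encodes an inhibitor of thioredoxin and of glucose uptake, rose by 0.87 with a standard error of 0.20 (adjusted p = 0.0432). Its normoosmotic values were 5.39, 5.39, 6.22 and 5.75 and its hypoosmotic values 6.57, 6.90, 6.63 and 6.12, with an overlap of 1 array from each group. Txnip kept its call in 7 of 16 settings, with an adjusted p of up to 0.145 without hypoosmotic replicate 2, and it lost it without any 1 array other than normoosmotic replicate 3 and hypoosmotic replicate 4. It also lost it after array medians were subtracted (0.0536) and with the clock score (0.0771). At an unadjusted p under 0.05 by limma, 3 genes of the list were higher and 2 lower, beside 14.6% of all genes. Ndrg1, a substrate of Sgk1, had a change of 0.62 that did not pass (adjusted p = 0.0735). The 2 lower genes were Nedd4l at −0.40 (adjusted p = 0.303) and Pdpk1 at −0.34 (adjusted p = 0.159), and neither passed.

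The metallothioneins are small cysteine-rich proteins that bind zinc and copper, and their genes are induced in liver by glucocorticoids and by zinc. Mt2A (probe set 10809399) read 13.15, 13, 13.14 and 13.14 in normoosmotic samples and 13.11, 13.26, 13.06 and 13.23 in hypoosmotic ones. The change was 0.06 with a 95% interval of −0.17 to 0.28 (adjusted p = 0.865). Mt1 (probe set 10796411) read 12.49, 12.40, 12.53 and 12.65, and then 12.50, 12.78, 12.34 and 12.78. Its change was 0.08 with an interval of −0.19 to 0.36 (adjusted p = 0.830). Neither passed the test and the groups of both overlapped.

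**Figure D2:**
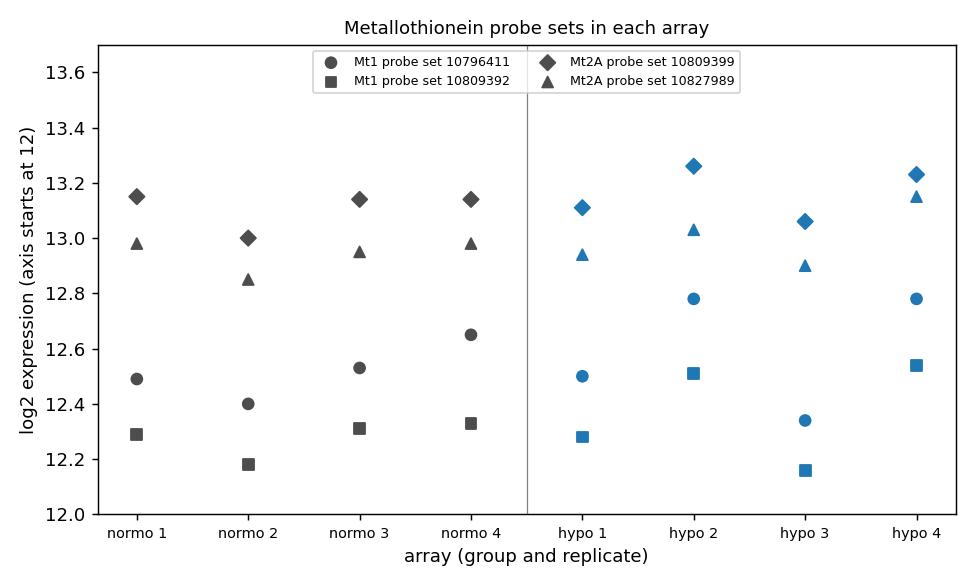
Log2 expression of the 4 metallothionein probe sets in each of the 8 arrays, normoosmotic in grey and hypoosmotic in blue, on an axis that starts at 12. Each symbol is 1 probe set; all 4 are higher in hypoosmotic replicates 2 and 4 than in hypoosmotic replicates 1 and 3.

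The 4 metallothionein probe sets moved alike from array to array, all higher in hypoosmotic replicates 2 and 4 than in replicates 1 and 3 of that group. The other probe set of Mt1 (10809392) had a change of 0.10 and that of Mt2A (10827989) one of 0.07. Both genes encode metallothioneins and their probe sets may share signal, which was not tested, so the 2 genes are not taken as independent observations. By mean signal the chosen probe set of Mt2A ranked 1 among 27596, and it was the brightest in 6 of 8 arrays. That describes probe brightness and not RNA amount, and no detection or saturation call was used here.

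Of the 28 measured genes of zinc handling and the metal response, Mt1 and Mt2A included, 1 was called higher and 0 lower. Without Mt1 and Mt2A it was 1 of 26. Over all genes 0.558% were called higher and 1.42% lower. The median change of the list was 0.06, beside 0.04 over all genes. The called gene was Slc30a2, a zinc exporter of vesicles, which rose by 0.69 with a standard error of 0.14 (limma, adjusted p = 0.0227). It read 3.76, 3.66, 3.65 and 3.53 in normoosmotic and 4.03, 4.51, 4.20 and 4.60 in hypoosmotic samples, and the groups lay apart. It kept its call in 11 of 16 settings and lost it without normoosmotic replicates 1, 3 and 4, without hypoosmotic replicate 2 and in the fit that includes the clock score, with an adjusted p of up to 0.0883. Mtf1, the factor that senses zinc, had a change of −0.04 (adjusted p = 0.919). Slc30a1, the zinc exporter of the plasma membrane and a known target of that factor, had one of 0.20 (adjusted p = 0.475), and Mt3 one of −0.04 (adjusted p = 0.947).

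**Figure D3:**
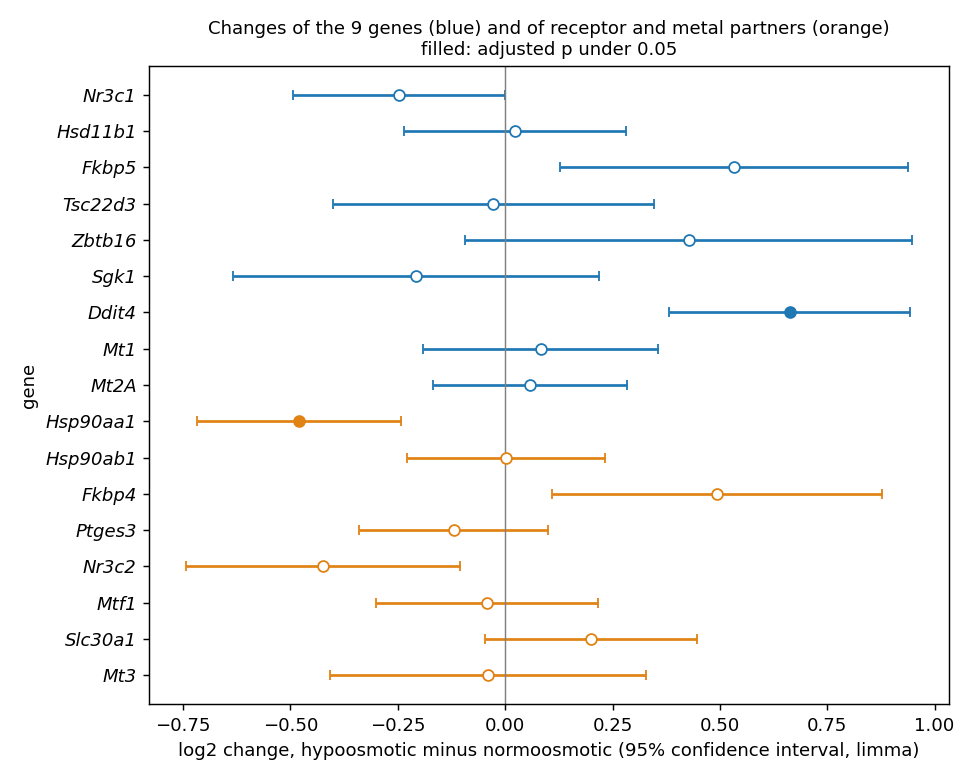
Log2 change of the 9 genes (blue) and of named partners (orange), hypoosmotic minus normoosmotic, with 95% confidence intervals from limma; filled points passed an adjusted p under 0.05. Ddit4 at 0.66 and Hsp90aa1 at −0.48 are filled, and the intervals of Mt1 and Mt2A span 0.

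Among the 25 measured genes of the receptor complex and its coregulators, 0 were called higher and 3 lower, with a median change of −0.13 beside 0.04 over all genes. Over all genes 0.558% were called higher and 1.42% lower. At an unadjusted p under 0.05 by limma, 9 genes of the list were lower and 2 higher, beside 14.6% of all genes. This list too was put together with results of these data known, so its counts are no independent evidence. Med1, the Mediator subunit that nuclear receptors bind, fell by 0.73 with a standard error of 0.12 (limma, adjusted p = 0.00936) and kept its call in all 16 settings. It read 7.33, 7.19, 7.29 and 7.27 in normoosmotic samples and 6.55, 6.34, 6.44 and 6.82 in hypoosmotic ones, well apart. Med14, the Mediator subunit that joins its modules, fell from a dim 3.53 ± 0.54 to 2.52 ± 0.18 (SD, n = 4 each; adjusted p = 0.0314) and kept its call in 8 of 15 settings. It was lost with the clock score, without normoosmotic replicates 1 and 3 and without any 1 hypoosmotic array (adjusted p up to 0.109). Hsp90aa1, the inducible Hsp90 gene, fell by 0.48 (adjusted p = 0.0437), a call kept in 6 of 16 settings. It was lost without any 1 of the 8 arrays (adjusted p up to 0.134) and with the clock score (0.130). Its sister gene Hsp90ab1 had a change of 0.003 (adjusted p = 0.995), and Ptges3, the p23 cochaperone, one of −0.12 (adjusted p = 0.663). In the settings that left out 1 array, 1 or 2 genes of this list were called lower and 0 higher.

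Fkbp4 encodes the cochaperone that replaces the product of Fkbp5 on the activated receptor. It read 6.82, 7.5, 7.0 and 7.75 in normoosmotic samples and 7.80, 7.86, 7.66 and 7.72 in hypoosmotic ones. Its change of 0.49 did not pass (95% interval 0.11 to 0.88, adjusted p = 0.199), and normoosmotic replicates 1 and 3 were its lowest arrays.

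Arrays of 1 group differed in their clock genes, and some members differed between the same arrays. Bmal1, a clock activator that opposes Dbp in phase, was at 4.85, 7.18, 4.75 and 7.32 in the normoosmotic arrays in order of replicate number, while Dbp was at 8.89, 6.22, 9.04 and 6.31. Fkbp5 and Tsc22d3 were higher in normoosmotic replicates 1 and 3 than in replicates 2 and 4, as Dbp was. Ddit4, Zbtb16 and Fkbp4 were lower in replicates 1 and 3, as Bmal1 was. In hypoosmotic samples Bmal1 read 7.15, 6.90, 6.42 and 6.92 and Dbp 5.96, 6.43, 7.98 and 8.08. The match did not carry over to these arrays as a whole. Dbp was high in hypoosmotic replicates 3 and 4, and Fkbp5 and Tsc22d3 were highest in replicate 4 but lowest in replicate 3. Bmal1 was lowest in replicate 3, as Fkbp4 was, but Zbtb16 there was at 6.23, near the top of its range, and Ddit4 was lowest in replicate 2.

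**Figure D4:**
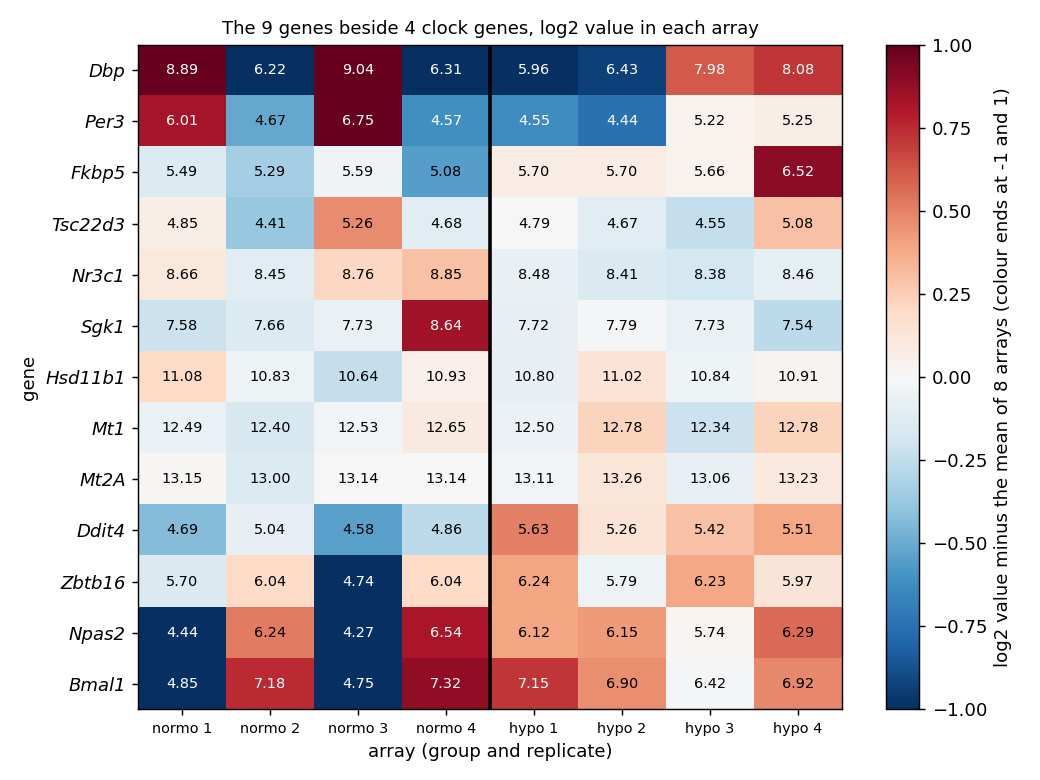
Log2 value of the 9 genes and of the clock genes Dbp, Per3, Npas2 and Bmal1 in each array, printed in the cell; colour is the value minus the mean of the 8 arrays, and a black line parts the groups. Dbp is high and Bmal1 low in normoosmotic replicates 1 and 3, where Zbtb16 and Ddit4 read lowest among the normoosmotic arrays.

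A clock score, the mean of Bmal1 and Npas2 minus the mean of Dbp and Per3, ran from −3.39 to 1.49 over normoosmotic arrays and from −0.52 to 1.38 over hypoosmotic ones. With it as a covariate the change of Fkbp5 was 0.65 (adjusted p = 0.152), that of Ddit4 0.58 (0.0652), that of Tsc22d3 0.11 (0.870) and that of Nr3c1 −0.24 (0.541). Its part in the values of the members was not tested beyond these fits. The 15 measured clock genes had a median change of −0.38, beside 0.04 over all genes. Of them 3 had a change above 0, beside 58.6% of all genes. At an unadjusted p under 0.05 by limma, 3 were lower and 0 higher, beside 14.6% of all genes. Over all genes 0.558% were called higher and 1.42% lower. Of the 15, 1 was called lower, the repressor gene Nr1d2 at −0.78 (adjusted p = 0.0318), and 0 higher. That call was lost without normoosmotic replicates 1 and 3, without hypoosmotic replicates 1 and 2 and with the clock score, with an adjusted p of up to 0.111.

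The 45 measured further genes known to be induced by glucocorticoid, in liver or elsewhere, went both ways, with 7 called higher and 4 lower. Over all genes 0.558% were called higher and 1.42% lower. The median change of the list was 0.06, beside 0.04 over all genes. At an unadjusted p under 0.05 by limma there were 13 higher and 11 lower, 24 in all, beside 14.6% of all genes. The list was put together with results of these data known, so its count is no independent evidence. Among the 6 with the smallest p, Angptl4, an inhibitor of lipoprotein lipase, rose from 7.74 ± 0.35 to 9.18 ± 0.14 (SD, n = 4 each) and Lcn2, an acute phase protein, from 7.70 ± 0.27 to 9.21 ± 0.39. Bcl6, a transcriptional repressor, rose from 6.01 ± 0.13 to 6.63 ± 0.20. Tat, a classic glucocorticoid-induced enzyme of rat liver that breaks down tyrosine, fell from 11.8 ± 0.06 to 11.0 ± 0.12. Igfbp1, a secreted binder of insulin-like growth factors, fell from 12.1 ± 0.06 to 11.5 ± 0.05, and the phosphatase gene Dusp1 from 9.30 ± 0.41 to 8.43 ± 0.18. Their adjusted p-values by limma lay between 0.00159 and 0.0258.

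Angptl4, Lcn2, Tat and Igfbp1 kept their calls in all 16 settings, and Bcl6 and Dusp1 in 10 each. Bcl6 lost its call without replicate 2 or 3 of either group (adjusted p up to 0.0858), after array medians were subtracted (0.0516) and with the clock score (0.0649). Dusp1 lost it without normoosmotic replicate 1 or 3 and without hypoosmotic replicate 1, 2 or 3 (up to 0.0799), and with the clock score (0.0583). The counts of the list were 2 to 5 higher and 2 to 5 lower when single arrays were left out. They were 2 higher and 4 lower after array medians were subtracted, and 2 higher and 3 lower with the clock score. Of the 23 measured genes known to be repressed by glucocorticoid, mostly cytokines and chemokines, 0 were called by limma. At an unadjusted p under 0.05 there were 9 lower and 2 higher, 11 in all, beside 14.6% of all genes. With limma's trended and robust prior 2 were called lower, and after quantile normalization 1 was called higher. Subtracting array medians gave 1 lower call, and so did weights per array. Omission of 1 array gave 1 lower call for normoosmotic replicate 4 and for replicates 2 and 4 of the hypoosmotic group. The smallest p was that of Vcam1, an adhesion molecule of endothelium, with a change of −0.68 (adjusted p = 0.0574). The list's median change was −0.12.

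**Figure D5:**
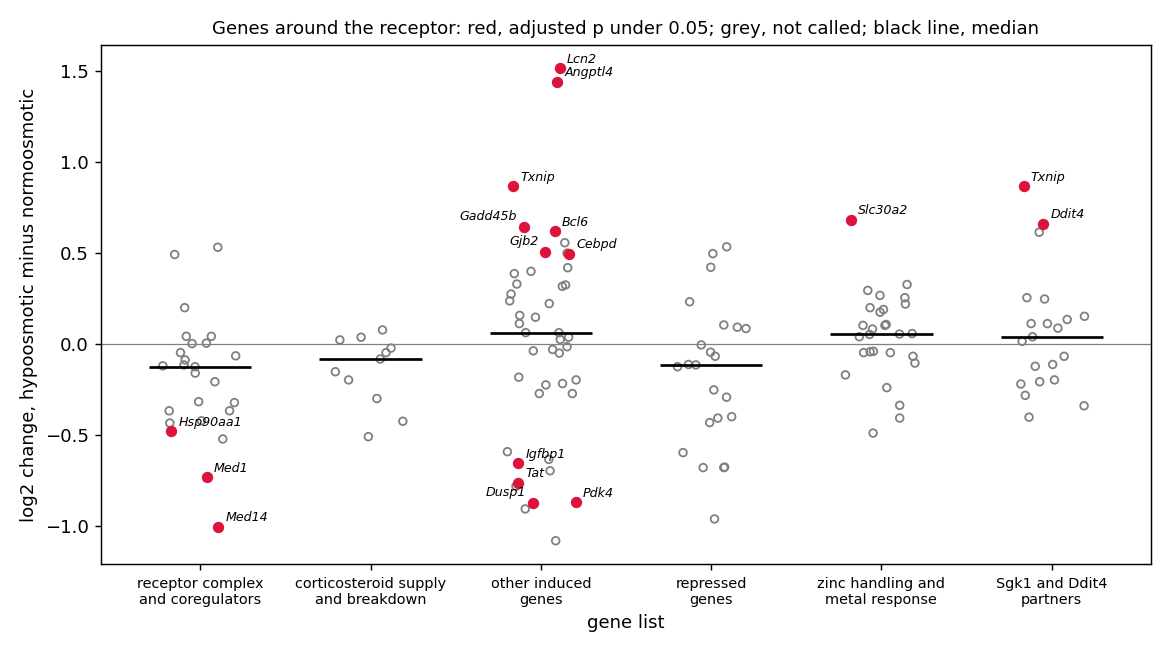
Log2 change, hypoosmotic minus normoosmotic, of the measured genes of 6 lists around the receptor; each circle is 1 gene, red if its adjusted p was under 0.05, and the black line is the list's median. The further induced genes span −1.08 to 1.52 with 7 red points above 0 and 4 below, and the lists of corticosteroid supply and of repressed genes hold no red point.

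The samples were whole liver, which holds several cell types, and fewer cells of a type cannot be told apart from less RNA per cell. All 10 hepatocyte markers were bright, with a mean log2 level of 12.2 in every normoosmotic array and 12.1 to 12.2 in hypoosmotic ones, and 0 of 10 were called. Of 10 macrophage markers 0 were called, with mean levels of 6.41 to 6.90 in normoosmotic and 6.47 to 7.10 in hypoosmotic arrays. Of the measured markers of endothelium, stellate cells, bile duct, lymphocytes, neutrophils and red cells, 1 was called, Fcgr3a of the neutrophil list, higher by 0.68 (adjusted p = 0.0428), a call kept in 7 of 16 settings and lost without any 1 array other than hypoosmotic replicate 1. Some marker lists leaned one way without calls. Of the macrophage markers 9 of 10 had a change above 0, with a median of 0.12, beside 58.6% of all genes. For endothelium it was 6 of 7, with a median of 0.12, and for hepatocytes 2 of 10, with a median of −0.06. The counts above 0 were 3 of 9 for stellate cells, 5 of 7 for bile duct, 5 of 8 for lymphocytes and 4 of 6 for neutrophils. Of the 4 measured red cell markers 0 had a change above 0, and their mean level was 4.45 to 4.93 in normoosmotic and 4.15 to 4.84 in hypoosmotic arrays. The haemoglobin gene Hbb, named after its values were seen, had a change of −0.85 (95% interval −1.62 to −0.09, adjusted p = 0.279). The part of these cells in the members' values was not tested. The defining neutrophil genes S100a8, S100a9 and Cxcr2 were dim at means of 1.65, 2.77 and 1.97. Medians of the arrays lay between 4.05 and 4.16, and precision is limited by there being 4 arrays in each group.

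For each member the gene with the most similar pattern over the 8 arrays, after each group's mean was subtracted, was looked up among the genes outside the lowest 25% by mean signal. For Nr3c1 it was Nr4a2 (Pearson r = 0.97), for Sgk1 Loxl2 (0.98), for Zbtb16 Ndst1 (0.98) and for Ddit4 Atp6v1g3 (0.96). For Fkbp5 it was Cir1 (0.99), for Tsc22d3 Spetex2el3 (0.99), for Mt1 Cmas (0.99), for Mt2A Cop1 (0.99) and for Hsd11b1 Ctsc (0.96). Each is the closest of 10878 genes over only 8 arrays, so it describes these arrays and carries no p. Atp6v1g3 was dim at a mean of 3.32, and Fkbp5, Sgk1 and Mt2A each held 1 array far from the others of its group. The weight of single arrays in these r values was not tested. Without the subtraction of group means r was 0.07 for Ddit4 and Atp6v1g3 and 0.16 for Fkbp5 and Cir1. The other pairs then lay between 0.75 and 0.99. Between the members, Mt1 and Mt2A were closest to each other, with a Pearson r of 0.90.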

How the data were processed

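The deposited table gives log2 expression of 27596 probe sets on 8 arrays; the log2 scale was read from the range of its values (0.88 to 13.26). Transcriptome Analysis Console 4.0 is named per the submitters' processing notes, while how signals were summarized and normalized is not given in the sources used here. Trizol extraction and biotin labelling are stated per the labels' protocols. Values were used as deposited. Of the probe sets 15310 had 1 gene symbol, 323 more than 1, and 11963 have no name here; current symbols were taken by gene ID with the RefSeq table of GRCr8 (15279 matched), and the probe set with the highest mean was taken, giving 14506 genes, dim ones included. No gene positions are given beyond the RefSeq windows, because no build is named for the arrays.

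Groups came from the sample titles, 4 against 4. They were compared with limma 3.58.1 in R 4.3.3 (lmFit, eBayes, group only, two-sided). Benjamini-Hochberg adjustment ran over all 14506 genes, and calls were made at an adjusted p under 0.05. The fit was also run on simulated data with independent noise for each gene. Those data held no array-wide or clock differences, so that run does not cover such differences between the real arrays. The members, lists and alternatives were chosen with earlier results of these data known. Named were all members, up to 6 called genes of a list by smallest p, a few fixed partners, and for each member the gene most like it. Outside that rule, H6pd, Serpina6, Ndrg1, Nedd4l, Pdpk1, Vcam1, Hbb, Per3, Npas2 and the dim neutrophil genes were also named. Alternatives, 16 in all, were quantile normalization or median centring of the arrays, removal of genes in the lowest 25% by signal, limma's trend and robust options, weights per array, replicate number as a block, averaging of probe sets, a clock covariate and omission of each array. The other probe sets of Mt1 and Mt2A were tested over all 27596 probe sets. Motifs were searched as exact letters.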

Additional observations from a re-analysis of the deposited data

Results flagged for a closer look

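Of the 18 sets of 4 values (9 genes in 2 groups), 3 held a value far from the other 3 by Dixon's criterion, in which the gap to the nearest value is divided by the range. Chance flags about 1 in 20 such sets, and over all genes 5.30% were so. Fkbp5 read 6.52 in hypoosmotic replicate 4, where the other 3 arrays lay between 5.66 and 5.70. Sgk1 read 8.64 in normoosmotic replicate 4, where the others lay between 7.58 and 7.73. Mt2A read 13 in normoosmotic replicate 2, where the others lay between 13.14 and 13.15.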

How the results depend on the processing

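The count of genes called over all genes was 287 and moved by more than 1.5 times in 6 settings. It was 92 with the clock score as a covariate, and 81 to 365 when single arrays were left out, with 117 and 108 without normoosmotic replicates 1 and 3 and 155, 81 and 156 without hypoosmotic replicates 1, 2 and 3. The share of calls that were higher was 28.2%, and 35.4% after quantile normalization and 20.4% after array medians were subtracted. The count of members called higher was 1, and 0 to 1 when single arrays were left out; it was 0 with the clock score and without normoosmotic replicates 1 and 3 and hypoosmotic replicates 1 and 3. The count of members called lower was 0 in all 16 settings. The numbers do not mark a stated pairing: the deviations of same-numbered arrays correlated at 0.05, 0.03, 0.08 and 0.17, and 2 of 4 correlated best with their own number. With the replicate number as a block 256 genes were called, and Ddit4 was called with an adjusted p of 0.0439. The block ended the calls of Hsp90aa1 (adjusted p = 0.0590) and Txnip (0.0529).

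The sign turned for members near 0. For Tsc22d3 the change was 0.11 with the clock score, and −0.158 to 0.126 when single arrays were left out; it was above 0 without normoosmotic replicate 3 (0.126), hypoosmotic replicate 2 (0.0067) and hypoosmotic replicate 3 (0.047). For Sgk1 it was −0.315 to 0.0383 over the single arrays left out, above 0 only when normoosmotic replicate 4 was omitted. For Hsd11b1 it was −0.00844 after quantile normalization and −0.02 after array medians were subtracted. Over single arrays left out it was −0.0542 to 0.0925, below 0 when normoosmotic replicate 3 or hypoosmotic replicate 2 was omitted. The cause of these moves was not tested. The signs of Nr3c1, Fkbp5, Ddit4, Zbtb16, Mt1 and Mt2A held in every setting run, including the other probe set of each metallothionein gene.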
